A study of Mus musculus with 12 samples.

Results

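The genes for the subunits of voltage-gated sodium and calcium channels were examined in maps of H4K8ac (histone H4 acetylated at lysine 8) from mouse oligodendrocyte progenitors (OPCs), a dividing glial population from which myelin-forming cells arise. Genes were taken by symbol alone, as every gene named Scn with a number and a or b, Cacna1, Cacna2d, Cacnb or Cacng. RefSeq holds 40 such genes, and 30 of them had at least 1 peak assigned to them in any library, out of 23433 genes in all the lists. They carried 506 of 269580 peaks. All cells came from the forebrain of mice with the PdgfrαH2BEGFP reporter, in which a nuclear green fluorescent protein marks cells that express the OPC receptor gene Pdgfra, and were sorted at postnatal day 5 (P5, neonatal) or 60 (P60, adult). Chromatin immunoprecipitation and sequencing gave 3 H4K8ac libraries per age, which the titles call biological replicates. The 6 input libraries were not analysed here.

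Each voltage-gated sodium channel is built on a pore-forming alpha subunit (the Scn genes ending in a) with small beta subunits beside it. Calcium channels have a pore-forming alpha1 subunit, which sets the L, P/Q, N, R or T type of the current, an extracellular alpha2delta subunit and an intracellular beta subunit that bring the channel to the membrane, and in muscle a gamma subunit. Most brain gamma genes encode regulators of AMPA-type glutamate receptors. OPCs are known for sodium and calcium currents and for the synapses they receive from neurons, and both currents change as the cells age and mature. H4K8ac is a mark of open, transcribed or accessible chromatin.

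The lists differed in length before any gene was considered. The neonatal libraries held 9097, 31189 and 7353 peaks and the adult libraries 72278, 72661 and 77002, so neonatal replicate 2 stood apart from the other neonatal libraries and every adult list was longer than every neonatal one. The files give no read totals, so the depth behind a missing peak is unknown, and the absence of a peak says only that none was listed at q under 0.05. Promoters of OPC marker genes were marked at both ages, with counts of 8, 8 and 7 of 8 at P5 and of 7, 7 and 6 at P60. Promoters of oligodendrocyte marker genes such as Mbp and Mog were marked for 3, 3 and 1 of 8 genes at P5 and for 8 of 8 in each P60 library. Of 12 neuronal markers, 0, 6 and 1 had a promoter peak in neonatal and 5, 4 and 4 in adult libraries. For 6 astrocyte markers the counts were 2, 4 and 1 against 3, 1 and 4, and for 6 endothelial and mural markers 0, 2 and 0 against 2, 2 and 2. Of 6 microglial markers only Cx3cr1 had peaks, in the 3 adult libraries. In sorted bulk cells a smaller share of marked cells and less mark per cell cannot be told apart, and the part that other cell types or list length have in the results was not tested.

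Promoter sequences of these genes were set beside their marking at both ages. RefSeq (GRCm38.p6) windows reaching from 250 bases before a listed start to 50 after it were held for 20 of the 30 genes with a peak, and for 30 of all 40 genes with 41 windows. Shown are the 250 bases before the start for 3 windows overlapped by a peak in all 6 libraries (Cacna1c, Cacna1d and Cacnb3), 3 overlapped in the 3 adult libraries and in no neonatal library (Cacnb4 at its internal start, Scn2a at its internal start and Cacng5), and for Scn2b, whose promoter held a site that the authors' deposited table gives as higher at P5. Capitals mark the GC box letters GGGCGG on either strand.
Cacna1c, chr6:119108496-119108745, minus strand: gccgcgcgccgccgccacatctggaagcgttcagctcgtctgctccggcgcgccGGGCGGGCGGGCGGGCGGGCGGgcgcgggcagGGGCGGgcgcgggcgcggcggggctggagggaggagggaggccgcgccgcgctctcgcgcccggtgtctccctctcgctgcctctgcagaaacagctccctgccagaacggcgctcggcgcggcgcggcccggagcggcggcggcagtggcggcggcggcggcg
Cacna1d, chr14:30353487-30353736, minus strand: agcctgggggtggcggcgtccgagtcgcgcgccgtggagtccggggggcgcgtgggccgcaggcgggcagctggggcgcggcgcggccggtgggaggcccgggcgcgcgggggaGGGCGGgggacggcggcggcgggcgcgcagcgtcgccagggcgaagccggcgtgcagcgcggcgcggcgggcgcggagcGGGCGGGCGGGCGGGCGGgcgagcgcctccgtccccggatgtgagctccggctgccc
Cacnb3, chr15:98634517-98634766, plus strand: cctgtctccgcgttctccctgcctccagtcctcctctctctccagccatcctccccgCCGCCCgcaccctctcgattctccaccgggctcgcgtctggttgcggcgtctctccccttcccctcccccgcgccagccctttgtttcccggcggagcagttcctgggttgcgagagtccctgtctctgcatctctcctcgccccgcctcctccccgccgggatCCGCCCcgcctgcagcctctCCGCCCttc
Cacnb4, chr2:52558612-52558861, minus strand: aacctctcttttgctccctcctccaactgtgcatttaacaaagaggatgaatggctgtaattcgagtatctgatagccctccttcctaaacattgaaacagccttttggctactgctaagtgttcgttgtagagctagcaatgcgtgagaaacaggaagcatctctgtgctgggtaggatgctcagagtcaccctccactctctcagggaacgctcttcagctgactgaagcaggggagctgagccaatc
Scn2a, chr2:65668436-65668685, plus strand: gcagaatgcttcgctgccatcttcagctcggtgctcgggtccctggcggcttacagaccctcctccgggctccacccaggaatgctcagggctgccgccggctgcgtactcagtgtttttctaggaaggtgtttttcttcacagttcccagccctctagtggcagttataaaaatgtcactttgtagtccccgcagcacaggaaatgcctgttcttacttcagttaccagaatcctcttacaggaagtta
Cacng5, chr11:107915056-107915305, minus strand: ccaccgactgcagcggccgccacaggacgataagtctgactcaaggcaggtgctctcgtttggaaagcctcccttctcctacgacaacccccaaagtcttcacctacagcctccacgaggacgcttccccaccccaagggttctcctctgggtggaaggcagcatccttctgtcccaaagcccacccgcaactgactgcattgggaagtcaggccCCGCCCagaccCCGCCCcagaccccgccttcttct
Scn2b, chr9:45117626-45117875, plus strand: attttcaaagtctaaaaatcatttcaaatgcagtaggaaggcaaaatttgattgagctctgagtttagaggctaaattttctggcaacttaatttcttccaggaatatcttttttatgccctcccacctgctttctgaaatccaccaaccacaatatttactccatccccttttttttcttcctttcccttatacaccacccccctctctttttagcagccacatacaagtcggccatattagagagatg

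The windows marked in all 6 libraries were rich in CpG and GC boxes, and most windows with no peak held no GC box. The 250 bases held 48 CpG and 6 GC boxes at Cacna1c, 50 and 5 at Cacna1d, and 23 and 3 at Cacnb3, overlapping matches counted each. Those of the adult-marked windows held 4 CpG and 0 GC boxes at Cacnb4, 9 and 0 at Scn2a, and 12 and 2 at Cacng5. Scn2b had 1 CpG and 0 GC boxes. All 5 channel windows overlapped in every library held a GC box, with a median of 37 CpG and a range of 23 to 50, whereas 3 of the 21 windows overlapped in no library held one, with a median of 4 CpG and a range of 0 to 23. Over all 32851 promoter windows of this length the median was 6 CpG and 32.7% held a GC box, against a median of 8 and 36.6% for the 41 channel windows. The E-box CANNTG was found in 63.4% of channel windows and 66.2% of all windows, the Sox letters ACAAAG in 22% and 16.5%, and the TATA box TATAAA in 4.88% and 12.4%, each on both strands. The TATA box stood in the Scn2a window shown. These matches describe letters in a window and say nothing of a factor bound there.

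Most peaks assigned to channel genes lay at promoters in neonatal and in introns in adult libraries, where a few genes held most of the intron peaks. Promoter peaks, which the authors' annotation places within 3000 bp of a listed transcript start, numbered 21, 47 and 18 in the neonatal and 45, 44 and 43 in the adult libraries, a ratio of means of 1.53 with overlapping groups. Intron peaks numbered 2, 20 and 1 against 66, 77 and 83, a ratio of 9.83 with no overlap. Promoter peaks made up 81.9% ± 16.3 (SD, n = 3) of the channel peaks in neonatal and 34.0% ± 2.85 (SD, n = 3) in adult libraries. The same shift ran through the lists as a whole, where promoter peaks were 80.5% ± 11.4 (SD, n = 3) and 42.5% ± 1.80 (SD, n = 3). Over all peaks, mean promoter peak numbers were 2.66-fold and intron peak numbers 13.3-fold larger in adult libraries. Distal intergenic peaks were rare in this family, at 0, 4 and 0 in neonatal and 2, 4 and 4 in adult libraries, a ratio of 2.5 against 7.48 over all peaks. Without neonatal replicate 2 the intron ratio was 50.2 and the promoter ratio 2.26. Among the 7353 strongest peaks of each library, the length of the shortest list, both ratios turned, to 0.311 for promoter and 0 for intron peaks.

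**Figure D1:**
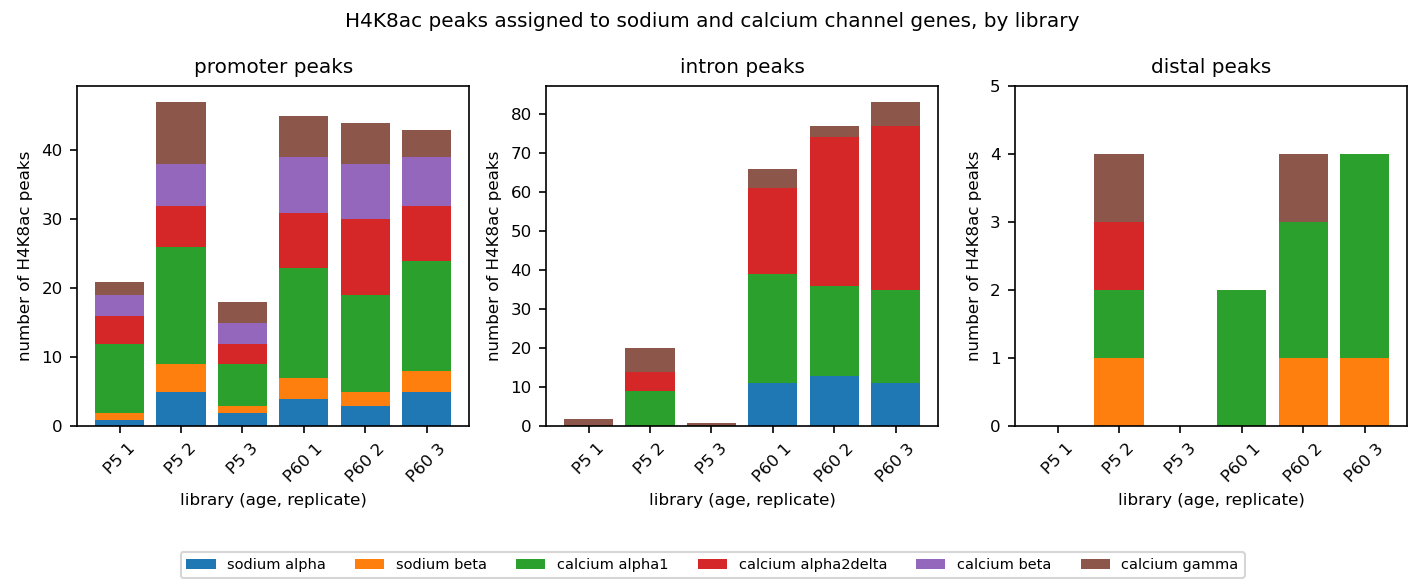
Number of promoter, intron and distal H4K8ac peaks assigned to channel genes in each library (x axis: age and replicate; y axis: number of peaks, with a separate scale in each panel), stacked by subfamily. Intron peaks lie between 66 and 83 in the P60 libraries and at 20 or fewer in the P5 libraries, while P5 replicate 2 has more promoter peaks, 47, than any P60 library.

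The family's part of each list was smaller in adult cells. Channel genes took 0.264%, 0.237% and 0.258% of the peaks of the neonatal libraries and 0.167%, 0.182% and 0.177% of those of the adult libraries, and the groups did not overlap. By covered bases the shares were 0.252%, 0.270% and 0.251% against 0.160%, 0.152% and 0.142%. The mean number of channel peaks was 3.32-fold larger in adult libraries, and that of all peaks 4.66-fold. Mean covered bases were 4.38-fold larger for channel peaks and 7.73-fold for all peaks.

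Several channel promoters were already marked at P5. Of the 30 genes, 11 had a promoter peak in all 6 libraries, where 17.1% of all genes did: the alpha1 genes Cacna1a (P/Q type), Cacna1c and Cacna1d (L type) and Cacna1h (T type), Cacna2d1 and Cacna2d2, Cacnb1, Cacnb3 and Cacnb4, the gamma gene Cacng4, and Scn8a, the sodium channel alpha subunit Nav1.6. Cacng5 alone had a promoter peak in the 3 adult and no neonatal library, a pattern of 9.60% of all genes. No channel gene had the reverse pattern, which 0.209% of all genes showed. Cacna2d4, Scn2a and Scn3b had promoter peaks in the 3 adult libraries and, among neonatal libraries, only in replicate 2. Cacng1, a skeletal muscle gamma subunit, had no promoter peak in any library. The 10 family genes with no peak of any class were Cacna1f, Cacng2, Cacng3, Cacng6, Scn4a, Scn4b, Scn7a, Scn9a, Scn10a and Scn11a.

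**Figure D2:**
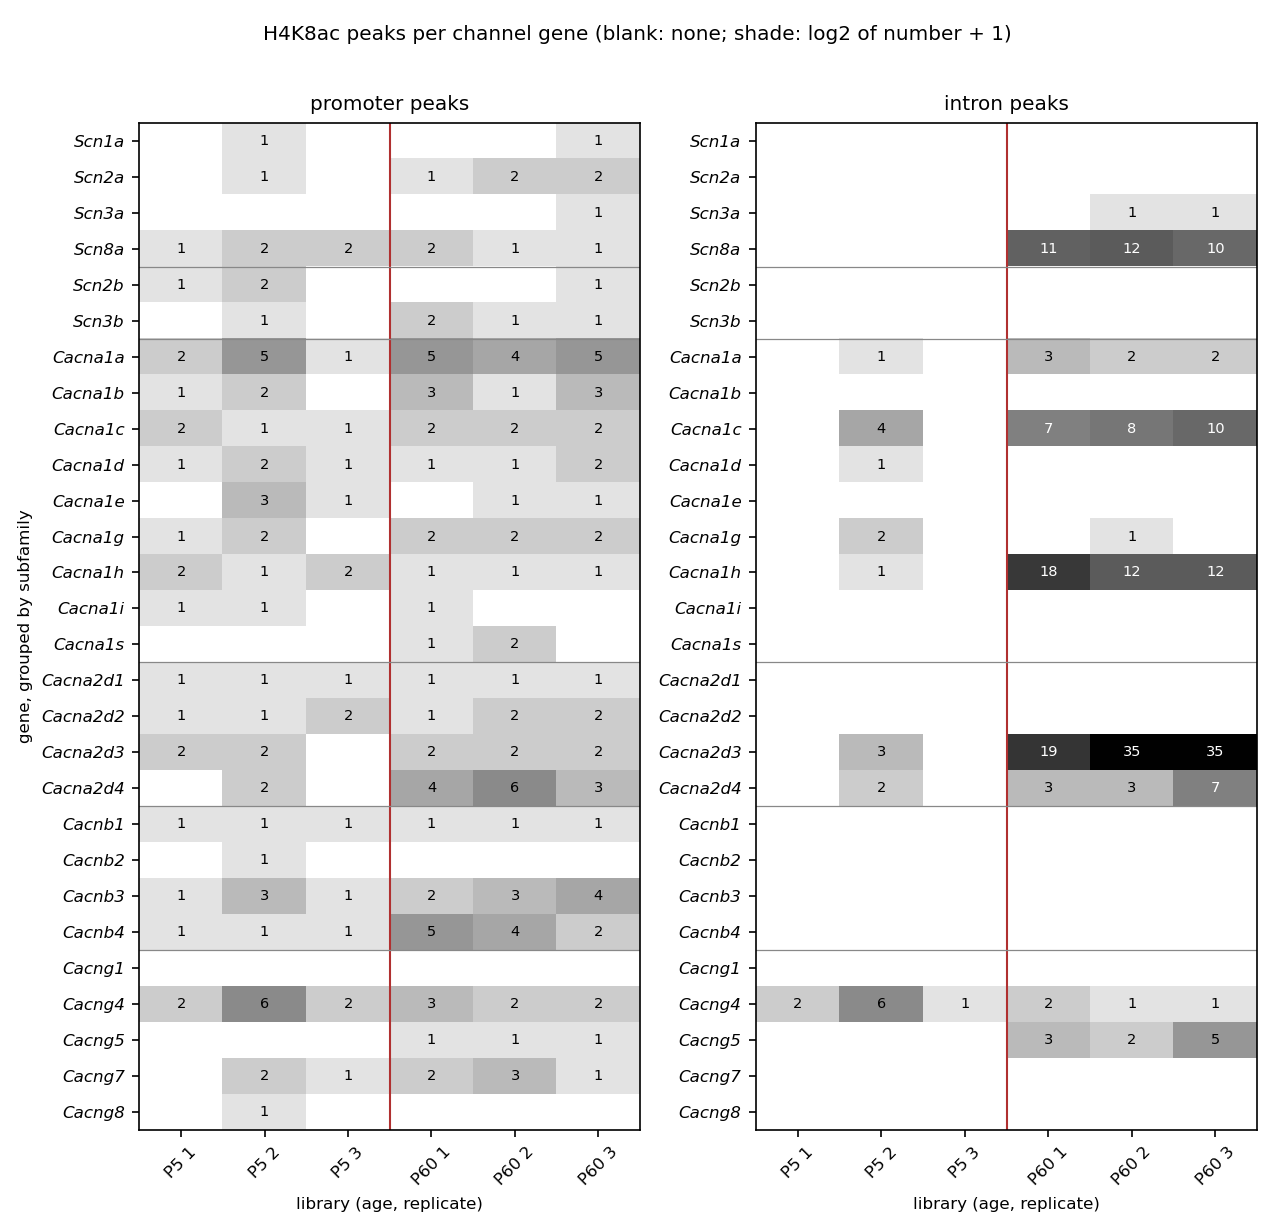
Promoter peaks (left) and intron peaks (right) assigned to 28 of the channel genes in each library (x axis: age and replicate; y axis: gene, grouped by subfamily; printed number: peaks; shade: log2 of the number plus 1; red line: border between the ages). Promoter peaks fill most rows at both ages, and intron peaks of adult libraries lie mainly in Cacna2d3, Cacna1h, Scn8a and Cacna1c.

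Among the strongest peaks the order of the ages was reversed for this family. With all peaks, 16, 26 and 14 channel genes had a promoter peak in neonatal and 23, 22 and 24 in adult libraries, beside 6383, 13700 and 5629 and 15511, 15117 and 15488 of all genes. When each list was limited to its 7353 strongest peaks, the channel genes numbered 14, 10 and 14 against 6, 5 and 3, and the ages no longer overlapped. Over all genes the limited lists gave similar numbers at both ages, 5521, 6331 and 5629 against 6080, 5422 and 5591. OPC marker genes showed the same order as the channels, at 8, 7 and 7 against 4, 4 and 4 of 8 in the limited lists, and oligodendrocyte marker genes the opposite, at 3, 3 and 1 against 6, 7 and 7 of 8. Whether the makeup of the sorted cells has a part in the channel counts was not tested. In the limited lists Cacna1a, Cacna1d, Cacnb4 and Cacng4 had a promoter peak in all neonatal and no adult libraries, 4 of the 19 channel genes with any such peak, where 4.59% of the 9904 genes with such a peak showed the pattern. No channel gene had the reverse pattern, which 4.12% of genes showed. The limit keeps the whole list of neonatal replicate 3, where the Cacna1a peak had rank 7350. The strongest promoter peak of Cacna1a had a fold over local background of 4.95, 9.37 and 2.77 against 7.37, 6.35 and 9.5. In neonatal replicate 3 that peak lay at chr8:84414399-84414757, far from the start near the gene's 3′ end used in the other libraries. The folds and the pattern of Cacna1a therefore do not follow a single start. For Cacna1d the folds were 5.87, 9.72 and 6.56 against 11.2, 9.93 and 6.26. They were 9.07, 8.4 and 7.58 against 8.74, 7.28 and 7.82 for Cacnb4. For Cacng4 they were 7.97, 16 and 5.35 against 6.59, 3.52 and 3.92. The strongest promoter peak of Cacnb4, a beta subunit, stood within the top 2.22%, 13.6% and 5.26% of the neonatal lists and the top 12.3%, 17.5% and 11.6% of the adult lists. That of Cacng4, a regulator of AMPA receptors that OPCs are known to express, stood within the top 3.85%, 0.667% and 26.5% of the neonatal and the top 24.7%, 55.9% and 37.9% of the adult lists. Ranks from lists of different lengths are given as a description and show no change in the mark itself.

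**Figure D3:**
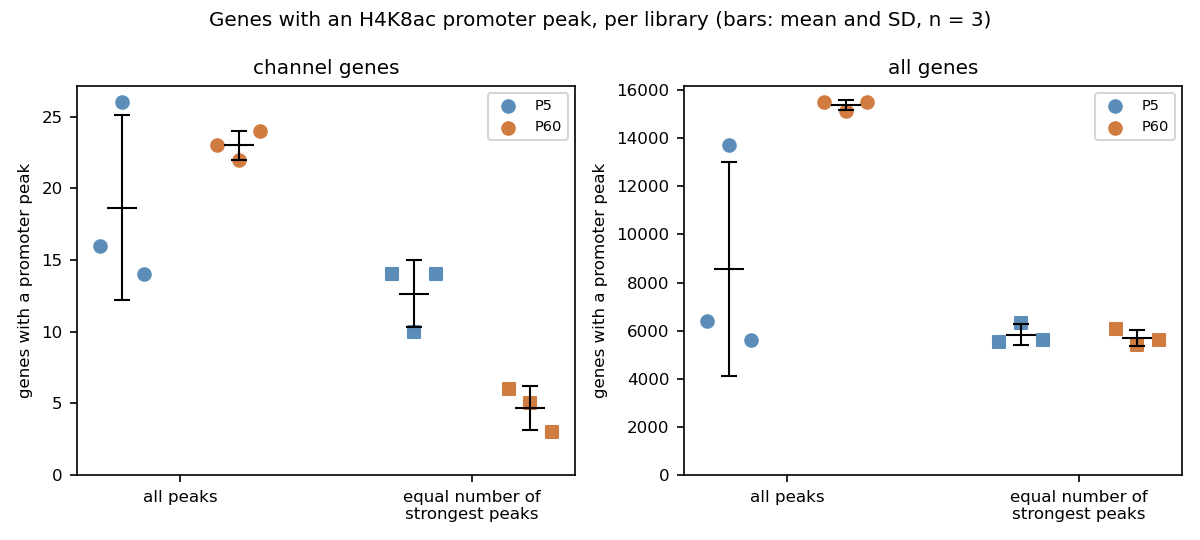
Number of genes with an H4K8ac promoter peak per library (y axis, from 0) in all peaks and in the 7353 strongest peaks of each library, for channel genes (left) and all genes (right); points are libraries and bars the mean and SD, n = 3. In the strongest peaks the P5 libraries hold 14, 10 and 14 channel genes and the P60 libraries 6, 5 and 3, while all genes are at similar numbers at both ages.

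The bases covered by peaks were higher in every adult than in every neonatal library for 11 of the 30 genes, where 60.0% of all genes met this criterion, and none had the reverse order, which 0.303% met. With 3 libraries per age the exact two-sided permutation test of such a gene gives p = 0.1, the smallest possible, so no gene can be called by it alone. The 11 were Cacna1a, Cacna1c, Cacna1h, Cacna2d1, Cacna2d3, Cacna2d4, Cacnb4, Cacng5, Cacng7, Scn2a and Scn8a, that is 2 of 5 sodium alpha, 0 of 3 sodium beta, 3 of 9 alpha1, 3 of 4 alpha2delta, 1 of 4 calcium beta and 2 of 5 gamma genes. The count was 3 when covered bases were scaled to the library's total and also 3 with lists limited to 7353 peaks each. Without neonatal replicate 2 it was 18, and for 9 genes that library had the highest value of all 6.

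Of the sodium channel alpha genes, Scn8a was the only one with a promoter peak in every library. Its peaks covered 364, 1380 and 420 bp in neonatal and 6888, 6422 and 8256 bp in adult libraries. On average Scn8a covered 9.97-fold more bases in adult libraries, beside 7.73-fold for all peaks of every class. Promoter peaks held 16.7% of its adult covered bases. Over all peaks, intron peak numbers were 13.3-fold and promoter peak numbers 2.66-fold larger in adult libraries. Its promoter was marked at both ages (1, 2 and 2 peaks against 2, 1 and 1), but its promoter peaks covered 180, 763 and 420 bp against 1300, 1197 and 1101 bp. Its exonic peaks covered 184, 617 and 0 bp against 1137, 1226 and 1723 bp, so in both classes every adult library lay above every neonatal one. Intron peaks numbered 0 in each neonatal and 11, 12 and 10 in the adult libraries. Of these, 7, 8 and 7 lay within 16.2 kb, chr15:100909179-100925376, and were annotated to intron 2 of 2 of a short listed transcript. An exonic region at chr15:100983428-100984265 was listed in 2 neonatal and all adult libraries. Scn2a, the alpha subunit Nav1.2, had peaks covering 0, 279 and 0 bp against 567, 652 and 650 bp, all in promoters. Those peaks lay at the internal start whose window is shown above, and the neonatal replicate 2 peak began past that window, at 65668796. Scn1a and Scn3a had peaks in 2 libraries each, covering at most 262 and 358 bp in any library.

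Among the sodium channel beta genes, which encode cell adhesion-like subunits, Scn2b held a site that was higher at P5 by the authors' deposited table. Its peaks covered 228, 1191 and 0 bp in neonatal and 0, 0 and 159 bp in adult libraries, so the groups overlapped. Just past the start, the region chr9:45117901-45118793 was listed in neonatal replicates 1 and 2 and no adult library. In the authors' deposited table that site had a log2 fold change of -2.03 with an adjusted p of 0.00365. Scn3b covered 0, 1424 and 0 bp against 1031, 1218 and 2144 bp, and neonatal replicate 2 lay among the adult values. Scn3b also had the only distal peaks of the sodium channel genes, 1 each in neonatal replicate 2 and adult replicates 2 and 3.

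Of the pore-forming calcium channel genes, the T-type gene Cacna1h had the densest intron marking. Its peaks covered 392, 2553 and 534 bp in neonatal and 11067, 9533 and 12253 bp in adult libraries. On average Cacna1h covered 9.44-fold more bases in adult libraries, beside 7.73-fold for all peaks of every class. Promoter peaks held 16.5% of its adult covered bases. Over all peaks, intron peak numbers were 13.3-fold and promoter peak numbers 2.66-fold larger in adult libraries. Intron peaks numbered 0, 1 and 0 against 18, 12 and 12, all in intron 2 of 34 within 23.0 kb, chr17:25404719-25427701, while the promoter peak at its 5′ end was listed at both ages. Per 100 kb of gene this was 22.6 adult intron peaks. Over the 5414 genes with an adult intron peak the median was 4.84 and the upper quartile 18.1. The L-type gene Cacna1c covered 408, 3275 and 567 bp against 5973, 5213 and 8738 bp, with 0, 4 and 0 intron peaks against 7, 8 and 10. Most of its adult intron peaks lay in intron 3 of 46, with 0, 4 and 0 against 5, 4 and 7, and the density of 1.37 per 100 kb was below the median over genes. The T-type gene Cacna1i was alone in this subfamily in having 2 distal peaks in each adult library, in the region from 80400843 to 80401935 on chromosome 15, past the gene's end. Neonatal replicate 2 had 1 distal peak in the same region.

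Peaks of the promoter class did not always lie at the outer end of a gene. Cacna1a, whose RefSeq span is chr8:84338631-84640251, had promoter peaks at chr8:84638511-84639390, at a start listed close to the gene's 3′ end, in neonatal replicates 1 and 2 and all adult libraries, and at chr8:84414229-84414912 in all 6. Promoter peaks within 3000 bp of the RefSeq 5′ end numbered 15, 27 and 13 in neonatal and 23, 22 and 22 in adult libraries, with overlapping groups. Those at another listed start numbered 6, 20 and 5 against 22, 22 and 21, a ratio of 2.10, and here the groups did not overlap. Neonatal replicate 2 was 1 peak short of the lowest adult library in that count.

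The alpha2delta genes held 22, 38 and 42 of the intron peaks of the adult libraries, most of them in Cacna2d3. That gene spans 818 kb. Its density of 3.63 adult intron peaks per 100 kb was below the median of 4.84 over genes with an adult intron peak. Cacna2d3 peaks covered 501, 1713 and 0 bp in neonatal and 9252, 13360 and 16831 bp in adult libraries. On average Cacna2d3 covered 17.8-fold more bases in adult libraries, beside 7.73-fold for all peaks of every class. Promoter peaks held 7.76% of its adult covered bases, and intron peak numbers over all peaks were 13.3-fold larger in adult libraries. Its intron peaks numbered 0, 3 and 0 against 19, 35 and 35, and 11, 23 and 22 of the adult ones lay in intron 4 of 37 within 40.1 kb, chr14:29403856-29443949. The 3 neonatal peaks lay elsewhere, in intron 31 of 37. The intron peaks of this gene had a median fold over local background of 4.34, 4.09 and 3.57 in the adult libraries by the authors' values. The best of them stood within the top 19.8%, 16.9% and 17.6% of the lists. Cacna2d4 covered 0, 1149 and 0 bp against 8427, 12136 and 11867 bp, mostly at its promoter, where a peak of 6774 and 6975 bp was listed in adult replicates 2 and 3. Cacna2d1, a subunit bound by gabapentin, had 1 promoter peak in every library. It covered 632, 969 and 448 bp against 1281, 1060 and 1019 bp, 1.64-fold more on average, beside 7.73-fold for all peaks of every class. Promoter peak numbers over all peaks were 2.66-fold larger in adult libraries.

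**Figure D4:**
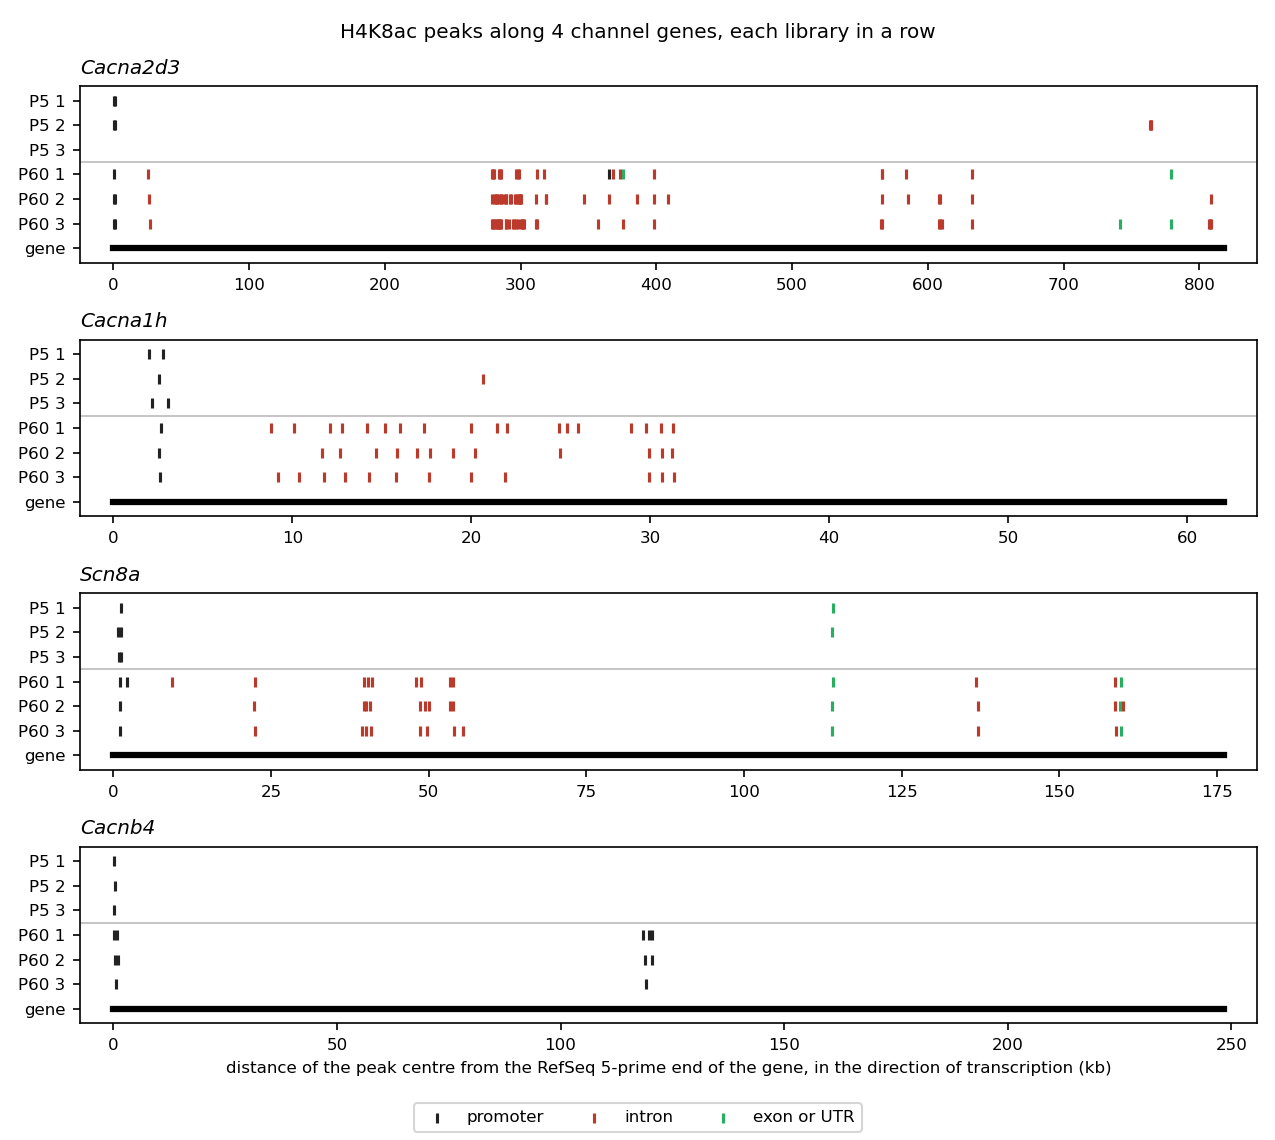
H4K8ac peaks along Cacna2d3, Cacna1h, Scn8a and Cacnb4 (x axis: distance of the peak centre from the RefSeq 5′ end in kb, in the direction of transcription; rows: libraries; colour: annotation class; black bar: the gene). Peaks at the left end are present at both ages, and clusters inside the genes are listed in the P60 libraries, as in Cacna2d3, where 11, 23 and 22 peaks fall in intron 4.

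Cacnb4 had 2 start regions whose marking differed by age. The region at its outer start, chr2:52675500-52676754, was listed in all 6 libraries. The region at its internal start, chr2:52555952-52558962, was listed in the 3 adult libraries and in no neonatal library. The outer region held a pair of windows. One, with 6 GC boxes and 37 CpG in 250 bases, was overlapped by a peak in all 6 libraries, and the other, at chr2:52675860-52676109, with 0 GC boxes and 23 CpG, in 1 neonatal and 3 adult libraries. The internal window shown above had 0 GC boxes and 4 CpG. In all, Cacnb4 peaks covered 425, 1029 and 463 bp against 3367, 3564 and 4017 bp. In the authors' deposited table a site at the internal start had a log2 fold change of 2.21 with an adjusted p of 7.45e-05. Cacnb3 covered 562, 1945 and 181 bp against 1522, 1753 and 2169 bp, with overlapping groups. Its strongest promoter peak stood within the top 30.3%, 13.0% and 69.8% of the neonatal and the top 4.69%, 5.43% and 4.43% of the adult lists. Cacnb2 had 1 peak, in neonatal replicate 2.

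The gamma genes Cacng4 and Cacng5, neighbours on chromosome 11, differed from each other. Cacng4 covered 1420, 5604 and 1191 bp in neonatal and 2227, 846 and 1352 bp in adult libraries, and was the only channel gene with intron peaks in neonatal replicates 1 and 3. Its intron peaks numbered 2, 6 and 1 against 2, 1 and 1, and the groups overlapped. In the authors' deposited table a site at chr11:107738900-107739299 in Cacng4 had a log2 fold change of -1.38 with an adjusted p of 0.0368. That site was of the promoter class, within 3000 bp of an internal listed start, with a peak in 2 neonatal and 1 adult libraries. Cacng5 had no neonatal peak and covered 1495, 1306 and 2728 bp in adult libraries, with 1 promoter peak in each and 3, 2 and 5 peaks in intron 1 of 5 within 3.75 kb. Cacng7 covered 0, 428 and 176 bp against 1717, 1487 and 2094 bp, all in promoter peaks.

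The channel genes differed widely in their intron peaks. The intron peak number was higher in every adult than every neonatal library for 7 of the 30 genes (Cacna1a, Cacna1c, Cacna1h, Cacna2d3, Cacna2d4, Cacng5 and Scn8a), where 14.7% of all genes met this criterion. The genes Cacna2d3, Cacna1h, Scn8a and Cacna1c, singled out after their values were seen, held 0, 8 and 0 intron peaks in neonatal and 55, 67 and 67 in adult libraries. All other channel genes held 2, 12 and 1 against 11, 10 and 16, and the groups overlapped. Some peaks inside these genes are assigned by the authors to another gene with a closer start, so intron peaks were also counted by the channel gene whose transcript is named in the annotation, a count added after the data were seen. By that count Cacnb4, with no intron peak of its own, held 0, 2 and 0 against 13, 16 and 18, of which 0, 0 and 0 against 11, 14 and 16 are assigned to Gm13541. Cacna1c held 0, 4 and 0 against 16, 19 and 18, so which genes hold most intron peaks depends on how peaks are assigned. Cacng4 then held 5, 15 and 2 against 3, 1 and 5. Cacna2d3 held 0, 6 and 0 against 29, 50 and 49.

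Merging overlapping peaks of the 6 lists gave 209 channel regions of 98027. Of these, 37 (17.7%) were listed in the 3 adult and no neonatal libraries, beside 20.4% of all regions, and none showed the reverse, which 0.0398% of all regions did. With 50% of a region covered, 24 were adult-only. With every list limited to 7353 peaks the direction turned, with 1 adult-only and 3 neonatal-only regions. Of the 37, 31 were intronic, 3 lay at promoters (Cacna1g, Cacnb4 and Cacng5), 2 in exons or UTRs and 1 was distal. Cacna2d3 held 11 of the intronic ones, Cacna1h 6 and Scn8a 6. In all 6 libraries 11 regions were listed, or 5.26%, beside 4.74% of all regions, and 100 regions, or 47.8%, were listed in a single library, beside 43.8% of all regions.

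The authors' deposited table of sites that differ between the ages holds 43888 sites, each with an adjusted p under 0.05. It names no direction. Its positive sites overlapped peaks of the adult libraries in 85.0%, 89.4% and 96.7% of cases and of the neonatal ones in 11.7%, 27.8% and 10.3%, while the negative sites overlapped neonatal peaks in 78.0%, 98.0% and 54.7% and adult peaks in 23.2%, 15.7% and 18.9%, so positive was read as higher in adult cells. Channel genes held 73 sites of the authors' deposited table, in 17 genes, with 71 higher in adult and 2, those in Scn2b and Cacng4, higher in neonatal cells. Sites higher in adult cells lay in 34.0% of the channel regions and 44.9% of all regions, and sites higher in neonatal cells in 2 channel regions and 0.255% of all regions. Of all sites in the authors' deposited table, 43634 were higher in adult and 254 in neonatal cells. Channel sites had a median of 2.35 on the log2 scale of the authors' deposited table and all listed sites 2.41, with 1.74 against 1.86 at promoters and 2.65 against 2.87 in introns.

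The sites of smallest adjusted p lay in Cacna2d3 and Scn8a. In the authors' deposited table intron 4 of Cacna2d3 held 13 sites, with log2 fold changes from 1.75 to 7.30, and the smallest adjusted p among channel sites, 7.89e-10, belonged to its site at chr14:29438229-29438628 (log2 fold change 4.07). For Scn8a the authors' deposited table gave 3.68 with an adjusted p of 2.23e-09 at chr15:101028573-101028972, in intron 21 of 26, and 7.09 with an adjusted p of 2.69e-09 in exon 22 of 27 beside it. The intron 1 site of Cacng5 at chr11:107904282-107904681 had 5.47 with an adjusted p of 5.43e-09 in the authors' deposited table. The smallest adjusted p of an alpha1 gene in the authors' deposited table, 1.59e-06, belonged to intron 2 of Cacna1h (log2 fold change 3.54). At promoters marked in all 6 libraries the authors' deposited table gave 1.05 for Cacna2d1, 1.27 for Cacnb3 and 1.31 for Scn8a on the log2 scale.

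**Figure D5:**
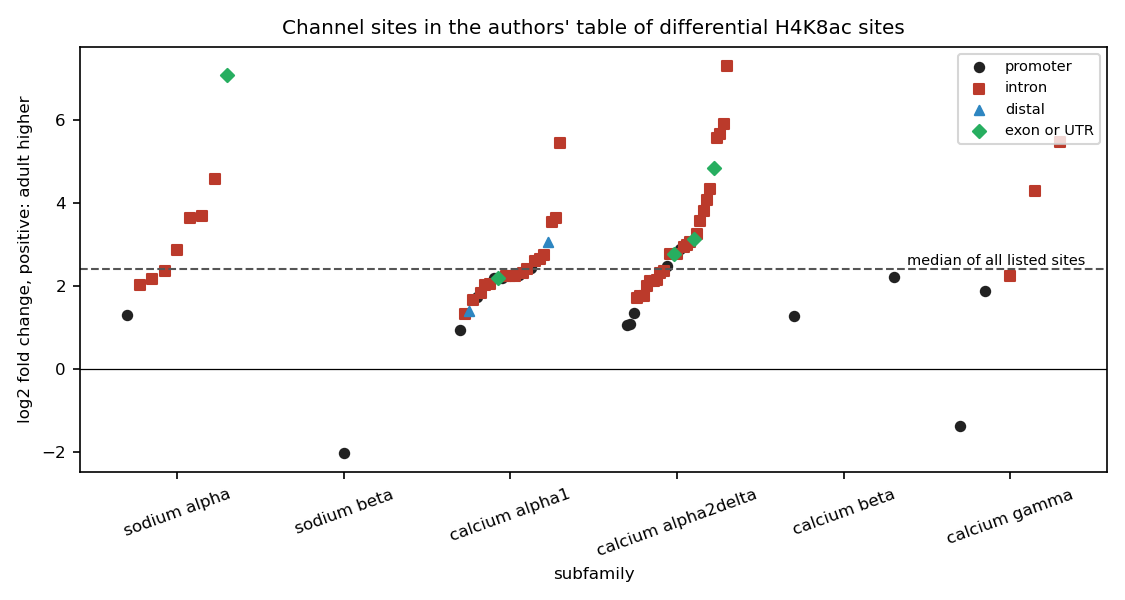
Log2 fold change (y axis; positive means higher in adult cells) of the 73 channel sites in the authors' deposited table, by subfamily (x axis; sites sorted by value within a subfamily, symbols by class); the dashed line is the median of all listed sites, 2.41. The sites in Scn2b and Cacng4 lie below 0, and the highest values are intronic or exonic sites of Cacna2d3 and Scn8a.

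Of 40 genes for proteins that anchor, bind or act beside these channels, 38 had a peak in any list. A promoter peak was listed for 23, 33 and 19 of them in neonatal and 31, 31 and 32 in adult libraries, and in the strongest 7353 peaks for 19, 18 and 19 against 14, 12 and 12. The covered bases of 20 were higher in every adult than every neonatal library, beside 60.0% of all genes, and of none the reverse. Only Itpr1, an intracellular calcium release channel, had a promoter peak in the 3 adult and no neonatal libraries, beside 9.60% of all genes, and 16 had one in all 6, beside 17.1%. The ankyrin gene Ank3, which anchors sodium channels at axon initial segments and nodes of Ranvier, covered 0, 847 and 0 bp against 21336, 24054 and 39263 bp. Nfasc, for the adhesion protein neurofascin of nodes and paranodes, covered 173, 1269 and 0 bp against 32009, 31375 and 45908 bp, and Ank2 588, 2478 and 715 bp against 18383, 19232 and 33107 bp. The promoters of oligodendrocyte markers moved in the same direction, as given above, and their part in these values was not tested. By the authors' deposited table, 154 of 155 sites of these 40 genes were higher in adult cells, with a median log2 fold change of 2.66, beside 43634 of 43888 listed sites and a median of 2.41.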

How the data were processed

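H4K8ac ChIP-seq peak lists of 3 neonatal and 3 adult libraries were used, 1 list per library. Each peak carries, per the file headers, the authors' score, a fold over local background (a ratio), the −log10 p and −log10 q, an annotation class, an assigned gene and the distance to its start. The distance, in bp, was used. So were the start, end and strand of the listed transcript and the gene identifiers, with those named in the annotation. A table of differential sites deposited by the authors gives the log2 fold change, raw p-value and adjusted p-value of each site, with no header and no values per library. The submitters' processing notes name Trim Galore, Bowtie2 2.4.5, SAMtools, deepTools, MACS2, DiffBind, ChIPseeker and the build GRCm38; roles, settings, the use of input and the normalisation behind the table are not given in the sources used here. The deposited lists end at q-values of 0.0427 to 0.0489.

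Peaks were counted by gene symbol, class, library and subfamily with Python 3.11.15, numpy 2.4.6, pandas 2.3.3 and scipy 1.17.1. Covered bases are the summed widths of the peaks assigned to a gene. The strongest peaks were ranked by −log10 p within a library. Regions are peaks merged where they share at least 1 bp. A site took the class and gene of the peak sharing most bases with it. Starts are counted from 1. The permutation and sign-flip tests were tried on simulated covered bases per gene, and the merging of regions on a small made-up example. The other counting steps were not tested in this way. RefSeq windows and gene spans are of GRCm38.p6. The genes, the partner list and the marker lists were chosen with earlier results of these data known. Values per library are given for genes with a promoter peak in all libraries of 1 age only, for the genes of each subfamily with the most covered bases or the most peaks outside promoters, for sites higher in neonatal cells and for the site of smallest adjusted p in each subfamily. Of the partners, the 3 with the largest mean covered bases are given. The values of 2 genes are not reported here, although the counts include them. Other genes named by position or pattern were chosen after their values were seen. Replicate numbers did not pair the libraries: correlations of same-numbered deviations were -0.038, 0.025 and 0.07.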

Additional observations from a re-analysis of the deposited data

How the results depend on the processing

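Limiting every list to its 7353 strongest peaks turned the promoter peak ratio of adult over neonatal to 0.311, the intron ratio to 0, and the difference in genes with a promoter peak to -8. It moved the difference in the share of peaks to -0.15 percentage points, the genes with more covered bases in every adult library from 11 to 3, the regions in adult libraries only from 37 to 1 and those in neonatal libraries only from 0 to 3. Covered bases scaled to the library's total also gave 3 genes. The share difference of -0.0779 points was -0.106 by covered bases, 24 adult-only regions were left when 50% of a region had to be covered, and at an adjusted p under 0.005 the sites higher in neonatal cells fell from 2 to 1. Leaving out 1 library at a time gave promoter ratios of 1.29 to 2.26, intron ratios of 6.85 to 50.2, distal ratios of 1.67 to 3.00, differences in genes of 2 to 8, share differences of -0.0859 to -0.0726, 11 to 18 genes by covered bases, 37 to 55 adult-only regions and 0 to 1 neonatal-only regions. Neonatal replicate 2 gave the values of 50.2 and 18. The cause of these changes was not tested. With the replicate number as a block, 11 genes were higher in the adult library of every same-numbered pair. Genes whose groups do not overlap meet this by construction, so the count could not fall below 11. The smallest p that an exact sign-flip test over 3 pairs can give is 0.25, so no gene could be called. Intron peaks by host gene, added after the data were seen, gave a ratio of 8.14. The distal ratio had no value for the strongest peaks or without neonatal replicate 2. The lists give no reads, so a peak missed for lack of depth and an unmarked region cannot be told apart.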
